A study of Mus musculus with 36 samples.

Results

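Uba1, Vcp and Cad are the 3 genes whose RNA lay lowest on polysomes relative to total RNA in mouse ES cells depleted of DDX6, among genes with a mean of at least 10 CPM in those libraries (CPM being reads per gene scaled to library size). They were thus chosen by measured polysome and total RNA values, and they were matched by symbol, and 3 of 3 were found in each of the 3 count tables, which hold 25229 genes for polysome and total RNA, 25239 for P-body and cytoplasmic RNA and 48440 for Ago2 KO cells. The study set RNA of sorted P-bodies against RNA of the cytoplasm, and polysome-bound RNA against total RNA, in 36 libraries of 16 groups. The cytoplasm here is a resuspended pellet of lysate cleared of nuclei, sampled before sorting. P-bodies were sorted from it, so it still contained them, and the ratio sets a part against the fraction it came from. P-bodies, cytoplasmic granules that hold untranslated mRNA with decay and repression proteins, were sorted by a GFP-LSM14A protein delivered by lentivirus. Polysomes are mRNAs carrying ribosomes. Polysome-bound RNA here is the pool of ribosome-containing fractions of a sucrose gradient.

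Naive ES cells were v6.5 cells (C57BL/6 crossed with 129S4Sv/Jae) kept in 2i and LIF, and primed ES cells were the same line in activin A and bFGF. Mouse embryonic fibroblasts (MEFs) came from mid-gestation embryos carrying doxycycline-inducible reprogramming factors (OKSM and M2rtTA). They were profiled untreated or after doxycycline, at day 3 of reprogramming, where cells carried either a control construct or an shRNA against Nudt21. Ago2 KO ES cells came from a paired CRISPR deletion in ES cells, and no unmodified ES cells were quantified in the same table. Control and DDX6 degron libraries both came from clonal, homozygous Ddx6-FKBP12F36V naive ES cells that also carry GFP-LSM14A. The degron groups received dTAG-13, which leads to degradation of the tagged DDX6 protein, and the controls were harvested alongside without it. All polysome cells received cycloheximide, which arrests ribosomes on mRNA.

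Libraries held 6769731 to 31185874 reads in the P-body and cytoplasm table, 13308782 to 29362195 in the polysome and total table and 15624401 to 17486268 in the Ago2 KO table. Naive ES markers summed to 2470 to 2732 CPM in naive cytoplasm against 377 to 399 CPM in primed cytoplasm, and fibroblast markers to 40420 to 44810 CPM in MEF cytoplasm against 5320 to 5479 CPM in day 3 control cytoplasm. The markers thus went with the labels. Nudt21 stood at 4.87 to 5.94 CPM in the 4 knockdown libraries and at 88.9 to 109.8 CPM in the 4 control ones, and Ago2 at 2.54 to 4.83 CPM in the Ago2 KO libraries. Ddx6 RNA was 198 to 211 CPM in degron total RNA and 220 to 253 CPM in control total RNA, and the degron acts on the protein, so this is no check of the depletion.

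Uba1 encodes the main E1 enzyme that activates ubiquitin for transfer to proteins. Vcp encodes the hexameric AAA ATPase (p97) that unfolds and extracts ubiquitinated proteins from membranes and complexes, with the help of adaptors such as Ufd1 and Npl4. Cad encodes the cytosolic multifunctional enzyme that carries out the opening steps of de novo pyrimidine synthesis, ahead of Dhodh and Umps.

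Uba1 lies on chromosome X, 20658326 to 20683179, plus strand (mm10, GENCODE M21). Its longest transcript is 4071 nt with 26 exons. Vcp lies on chromosome 4, 42979963 to 43000507, minus strand, with a longest transcript of 3316 nt and 17 exons. Cad lies on chromosome 5, 31054780 to 31078479, plus strand, with 7137 nt and 44 exons. Vcp exons overlap those of the opposite-strand gene 1700022I11Rik by 213 bases, while Uba1 and Cad overlapped no other annotated exon. Uba1 has a near copy on chromosome Y, Uba1y, and reads shared between them cannot be assigned with certainty. Uba1y held 18.6 CPM in naive and 12.3 CPM in primed cytoplasm, and the polysome and total RNA group means were 0.61 to 2.58 CPM.

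The sequences at annotated transcription starts are shown because the 5′ end of an mRNA is where ribosomes are recruited, and a run of pyrimidines there marks a known class of translationally controlled mRNAs. Each line gives 15 bases before the start in lower case and 15 bases from the start in capitals, read on the gene's strand (RefSeq, GRCm38.p6).

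Uba1, start 1, chrX:20658287-20658316: aaaacctgtatgggaTTTTTGTCCCTGAAA
Uba1, start 2, chrX:20658489-20658518: ctccagaaggaaggcGAGGCTTCCGCCCAG
Uba1, start 3, chrX:20662881-20662910: ctgggggtggggctcAGGGTTTTGTTCCGG
Vcp, chr4:43000493-43000522: cggagaggcgggcacGAGTCCCAAGGCCGG
Cad, chr5:31054765-31054794: tgcttgcgccgtcgcAGTCGTGCTTCAGCT

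The longest unbroken run of C or T in these 30-base windows, on the gene's strand, was 5 bases at Uba1 starts 1 and 2 and 4 bases at Uba1 start 3, Vcp and Cad. Of 32851 promoters in the same table, 47.3% held a run of at least 5 and 69.1% a run of at least 4 in the same window. Runs of these lengths were thus common among promoters, and a match or its lack says nothing about any factor. The runs were counted anywhere in the window, also before the start, so the shares do not count mRNAs that begin with one.

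Uba1 RNA was abundant in total RNA, and its ratio of polysome-bound to total RNA was low relative to other genes. The 3 control total RNA libraries held 682, 694 and 689 CPM of Uba1 and the 3 control polysome libraries 102, 98.1 and 103 CPM. The groups lay far apart, and the polysome mean was 14.7% of the total RNA mean. CPM are scaled to library size, so this percentage compares shares of libraries. It is not the part of Uba1 RNA that was bound to ribosomes, and the same holds for Vcp and Cad. The fitted log2 ratio of polysome-bound to total RNA, called ribosome occupancy here, was −2.77 ± 0.064 (SE, n = 3 and 3). After dTAG-13, Uba1 stood at 685, 673 and 681 CPM in total RNA and at 83.0, 86.3 and 79.1 CPM on polysomes. All 3 degron polysome libraries lay below all 3 control ones, and occupancy was −3.04 ± 0.046.

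Vcp was the most abundant of the 3 in CPM, in total RNA and on polysomes. Its control total RNA libraries held 729, 754 and 699.7 CPM, and its control polysome libraries 123, 122 and 124 CPM. The polysome mean was 16.9% of the total mean, and occupancy was −2.57 ± 0.063. With the degron the values were 782, 769.7 and 779.6 CPM in total RNA and 110.3, 102 and 108 CPM on polysomes. Every degron total library lay above, and every degron polysome library below, the control ones, and occupancy was −2.87 ± 0.046.

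Cad held 558, 552 and 582 CPM in control total RNA and 91.9, 84.5 and 86.4 CPM on control polysomes, a polysome mean of 15.5% of total and an occupancy of −2.69 ± 0.066. In degron cells it held 563, 536 and 529 CPM in total RNA and 77.4, 82.3 and 80.2 CPM on polysomes. These degron polysome values lay just below the lowest control value, while the total RNA values overlapped. Degron occupancy was −2.76 ± 0.047.

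**Figure D1:**
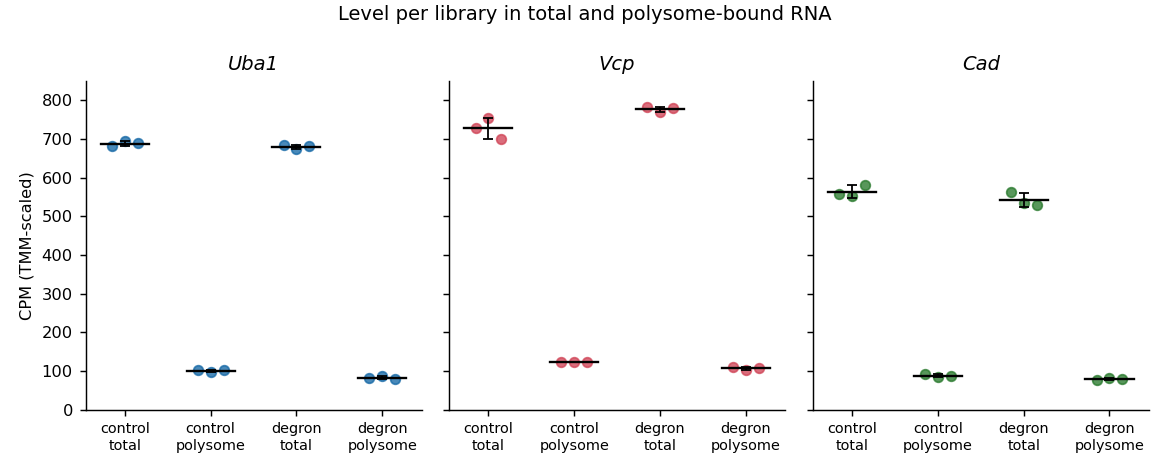
TMM-scaled CPM of Uba1, Vcp and Cad (vertical axis) in each total and polysome library of control and degron cells, with 3 points a group and the mean and SD as black bars. Polysome values lie at 77.4 to 124 CPM and total RNA values at 529 to 782 CPM, with no overlap for any of the genes.

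These ratios chose the genes, so they are given without a test. Among 9102 genes with at least 10 CPM in control cells, Uba1 ranked 2, Cad 3 and Vcp 7 from the lowest occupancy, where the median gene was at −0.005 and the lowest 5% began at −1.26. Col4a1, a collagen gene at 10.3 CPM, was lowest in control cells, at −2.87. In degron cells the 3 genes ranked 1 (Uba1), 2 (Vcp) and 3 (Cad) of 9116 genes. Col4a1, at −2.98, would lie between Uba1 and Vcp there but did not reach 10 CPM. With no minimum level, the 3 genes ranked 19 to 24 of 15411 genes in control and 16 to 21 of 15638 in degron cells, behind genes with few reads.

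The neighbours in the order were close by. Among 2349 genes of at least 100 CPM in control cells, Uba1 (rank 1) and Cad (2) were followed by Lamc1 (3, −2.67), a laminin subunit, Col18a1 (4, −2.65), a collagen, and Snrnp200 (5, −2.63), a spliceosomal helicase, with Vcp at rank 6. Among those that followed were Cltc, the clathrin heavy chain (−2.50), Nid1, a basement membrane protein (−2.43), Chd4, a chromatin remodeller (−2.40), and Hspa5, the ER chaperone BiP (−2.37). Occupancy SEs among these genes were 0.063 to 0.091, and successive genes named here, from Cad to Hspa5, differed by about these errors or less. In degron cells Lamc1 was next after Cad, at −2.73 against −2.76.

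**Figure D2:**
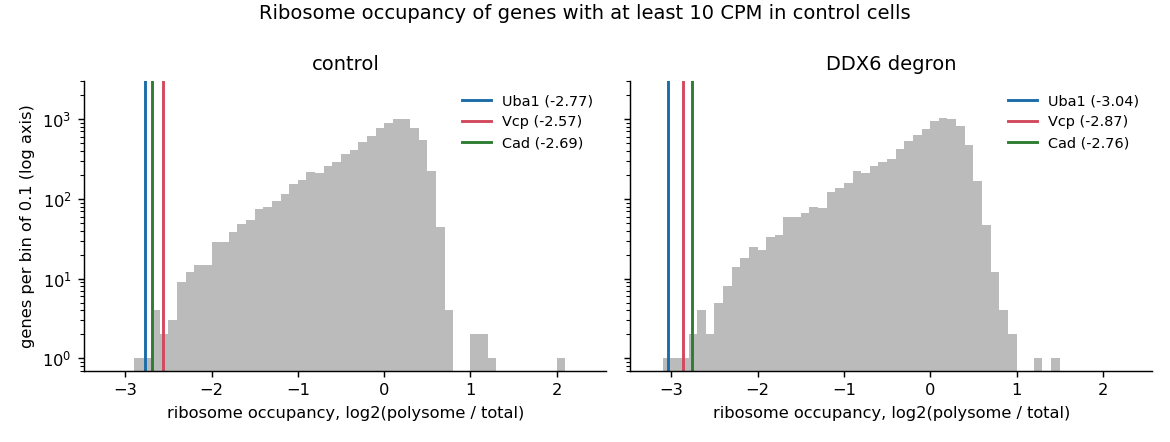
Histograms of ribosome occupancy, log2 of polysome over total RNA (horizontal axis), for genes of at least 10 CPM in control cells, with the number of genes per bin on a log axis, in control and degron cells. The coloured lines mark Uba1, Vcp and Cad at −2.77, −2.57 and −2.69 in control and at −3.04, −2.87 and −2.76 in degron cells, at the far left edge of both distributions.

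The genes low in occupancy shared long coding sequences. Across 8895 genes with a coding length in the annotation, Spearman's rho between control occupancy and the gene's longest coding length was −0.738, against −0.57 for exon number, −0.42 for transcript length and −0.133 for GC content over 8997 genes. These are descriptions across genes measured in the same 6 libraries, not tests. The median occupancy fell from 0.41 in the decile of genes with the shortest coding sequences (111 to 540 nt) to −0.72 in the decile with the longest (3582 to 23151 nt). The coding length of Uba1 was 3174 nt, longer than 86.8% of genes, that of Vcp 2418 nt (77.7%) and that of Cad 6675 nt (97.9%), against a median of 1404 nt.

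Within deciles of coding length the 3 genes kept their low place, which follows from their having been chosen for this ratio and is given as a description. Uba1 was the lowest of the 885 genes in its decile of coding length and Vcp the lowest of the 892 in its own, at −2.24 and −2.22 log2 units from the median of those genes. Cad ranked 2 of 889, at −1.98 from the median. The medians of these deciles were −0.53, −0.34 and −0.72. As to exon number, Uba1 with 26 exceeded 92.5% of genes, Vcp with 17 exceeded 79.5% and Cad with 44 exceeded 98.7%, against a median of 8. GC content of the longest transcript was 52.0% for Uba1, 49.8% for Vcp and 57.4% for Cad, against a median of 49.2%.

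**Figure D3:**
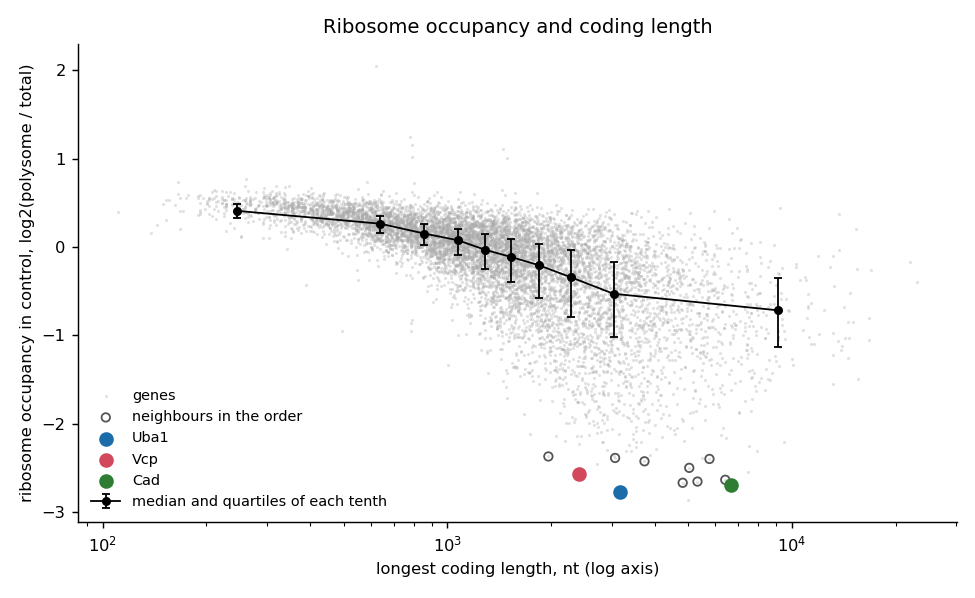
Control ribosome occupancy (vertical axis, log2 of polysome over total RNA) against the longest annotated coding length of each gene (horizontal log axis), for 8895 genes as grey points, with the median and quartiles of each decile in black and the neighbours in the order as open circles. The medians fall from 0.41 to −0.72 with length, and Uba1, Vcp and Cad lie at −2.57 or lower.

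Loss of DDX6 was next compared within each RNA fraction, which asks whether these mRNAs moved onto polysomes when DDX6, an RNA helicase needed for P-bodies, was depleted. The measured polysome level of each was lower, not higher. Polysome-bound RNA had log2 differences, degron minus control, of −0.28 ± 0.046 for Uba1, −0.21 ± 0.044 for Vcp and −0.13 ± 0.047 for Cad (SE, n = 3 and 3). Total RNA differed by −0.03 ± 0.044, 0.09 ± 0.046 and −0.07 ± 0.049. Occupancy changed by −0.27 ± 0.067 for Uba1, −0.30 ± 0.068 for Vcp and −0.07 ± 0.071 for Cad. Because the degron libraries chose the genes, these values carry no test, and choosing genes for a low degron ratio favours a negative difference. Over all genes, 3.31% changed in total RNA, 2.36% fell in polysome-bound RNA, and 0 of 16345 changed in occupancy by edgeR at an adjusted p under 0.05, with 844 at an unadjusted p under 0.05 and 4 called by DESeq2. The total RNA count of 509 genes ran from 6 without degron total RNA replicate 1 to 3373 without control total RNA replicate 3, the polysome count of 666 fell to 179 without control polysome replicate 1, and the occupancy count reached 52 without control total RNA replicate 3.

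Their pathway partners differed by list. E1 enzymes and purine genes were called in the lower direction only, and VCP cofactors and pyrimidine genes in both. Occupancy fell with coding length across genes, and the part of coding length in these list differences was not tested. Of the 9 other E1 enzymes for ubiquitin and ubiquitin-like proteins, 4 were lower on polysomes and 0 higher in control cells, against 24.1% of all genes lower and 18.8% higher. The list median was −0.30 against 0.02 for all genes. Uba6, the other E1 that charges ubiquitin, was the lowest of those called, with 13.8, 13.5 and 16.9 CPM on polysomes against 59.5, 54.6 and 42.8 CPM in total RNA (−1.85 ± 0.11, adjusted p = 1.12e-09). Mocs3, which activates a ubiquitin-like sulfur carrier, had the smallest called difference (−0.30, adjusted p = 0.0247), a call lost without control polysome replicate 1 or 2 or control total RNA replicate 3. With the degron 6 of 9 were lower and 0 higher, against 26.8% and 24% of all genes, and Uba6 was at −1.55.

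Of 29 adaptors and cofactors of VCP, 11 were lower and 10 higher in control cells (all genes 24.1% and 18.8%), with a median of 0.01. Ube4b, a ubiquitin chain elongation factor, was lowest (−1.28, adjusted p = 4.75e-11) and Svip, a small VCP inhibitor, highest (0.58, adjusted p = 0.000433). The core heterodimer was split. Nploc4 was lower (−0.35, adjusted p = 0.000312), while Ufd1, at 59.4, 57.1 and 63.6 CPM on polysomes and 61.3, 58.6 and 55.0 CPM in total RNA, had a log2 ratio of 0.03 (adjusted p = 0.742). In degron cells 13 were lower and 9 higher (all genes 26.8% and 24%).

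Of 16 other genes of pyrimidine nucleotide synthesis, 5 were lower and 7 higher in control cells (all genes 24.1% and 18.8%), with a median of 0.11. Rrm1, the large subunit of ribonucleotide reductase, was lowest (−2.14, adjusted p = 9.38e-13) and Dut, which hydrolyses dUTP, highest (0.43, adjusted p = 3.81e-05). Umps, which completes UMP synthesis after Cad and Dhodh, held 99.1, 92.1 and 92.9 CPM on polysomes against 129, 132 and 135 CPM in total RNA (−0.49, adjusted p = 8.57e-06). Dhodh, the mitochondrial enzyme between them, was at −0.18 (adjusted p = 0.0572). In degron cells 6 were lower and 6 higher (all genes 26.8% and 24%). Of 13 de novo purine genes, 9 were lower and 0 higher in control cells (median −0.35) and 10 were lower and 0 higher in degron cells. Among the control calls, Gart, a multifunctional purine enzyme, was lowest (−1.85, adjusted p = 1.93e-12) and Adsl, adenylosuccinate lyase, least changed (−0.29, adjusted p = 0.000676).

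P-body libraries were not used to choose the genes and allow a test. Uba1, Vcp and Cad were not enriched in P-bodies in any of the 6 cell conditions. Each log2 ratio of P-body to cytoplasm was below 0, and 9 of 18 passed the test, with the shares of all genes called given for each condition. A ratio below 0 was not always low, as the median gene in naive cells was at −0.059. Of all genes, 25.9%, 51.1% and 23.3% lay below Uba1, Vcp and Cad in naive cells, and 26.3%, 37.2% and 3.88% in primed cells. In naive ES cells Uba1 held 626 and 646 CPM in P-bodies against 971 and 894 CPM in cytoplasm (−0.55 ± 0.098, adjusted p = 0.00946, n = 2 and 2). Cad held 713 and 663 CPM against 1120 and 986 CPM (−0.61 ± 0.11, adjusted p = 0.00995). Vcp held 1023 and 1053 CPM against 1088 and 1039 CPM, groups that overlapped (−0.035 ± 0.092, adjusted p = 0.786). Of all genes, 15.4% were lower and 22.6% higher in naive P-bodies. Without P-body replicate 1 or 2, with the lone remaining library assumed to vary like the cytoplasm, Uba1 (adjusted p = 0.213 and 0.185) and Cad (adjusted p = 0.146 and 0.203) were no longer called, and the count of all genes called fell from 5941 to 2056 and 2079. It rose to 9546 and 10018 without cytoplasm replicate 1 and 2.

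In primed ES cells all 3 were lower in P-bodies, as were 24.2% of all genes, while 26.5% were higher. Cad was furthest down, with 349 and 364 CPM in P-bodies against 1011 and 1094 CPM in cytoplasm (−1.58 ± 0.049, adjusted p = 2.29e-10). Uba1 held 409 and 406 CPM against 522 and 563 CPM (−0.44 ± 0.05, adjusted p = 1.15e-05), and Vcp 779.5 and 785 CPM against 854 and 937 CPM (−0.22 ± 0.048, adjusted p = 0.0023). Vcp lost its call when all groups were fitted together (adjusted p = 0.198).

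MEF P-bodies held the least of all 3 relative to cytoplasm. Cad stood at 49.5 and 47.7 CPM against 229 and 209.8 CPM (−2.13 ± 0.095, adjusted p = 1.91e-06). Uba1 stood at 280.2 and 261 CPM against 676 and 627 CPM (−1.22 ± 0.083, adjusted p = 5.82e-06). Vcp stood at 709.5 and 666 CPM against 1332 and 1253 CPM (−0.87 ± 0.076, adjusted p = 1.75e-05). In MEFs 28.7% of all genes were lower and 26.6% higher in P-bodies. Genes with a lower ratio than Cad, Uba1 and Vcp made up 2.27%, 10.8% and 18.9% of all genes. Without cytoplasm replicate 1 the count of all genes called fell from 8955 to 5595, and all 3 members were still called.

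At day 3 of reprogramming, in control cells Uba1 held 467 and 369 CPM in P-bodies against 564 and 575 CPM (−0.40 ± 0.12, adjusted p = 0.122), Vcp 1539 and 1176 CPM against 1706 and 1659 CPM (−0.27 ± 0.12, adjusted p = 0.221) and Cad 152 and 119.9 CPM against 243 and 246 CPM (−0.81 ± 0.13, adjusted p = 0.0504). None passed, and 0.45% of all genes were lower and 0.196% higher in this comparison. The P-body libraries lay below the cytoplasm for each gene. The P-body replicates differed from each other for each gene, and without either of them the lone other sample gave all 3 calls. Uba1 and Cad also passed with DESeq2 (adjusted p = 0.0446 and 2.97e-05) and Cad with a replicate block (adjusted p = 0.0265). With the Nudt21 knockdown Cad was lower in P-bodies at 151 and 187 CPM against 299.8 and 287 CPM (−0.81 ± 0.11, adjusted p = 0.00089), as were 12.8% of all genes. Uba1, at 475 and 501 CPM in P-bodies against 562 and 579 CPM (−0.24 ± 0.085, adjusted p = 0.0653), and Vcp, at 1545 and 1540 CPM against 1664 and 1620 CPM (−0.11 ± 0.077, adjusted p = 0.375), did not pass, although their fractions did not overlap. Uba1 was called without P-body replicate 2 (−0.27, adjusted p = 0.0125) and with a replicate block (adjusted p = 0.0414).

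In Ago2 KO ES cells none of the 3 passed in the fit without a replicate block, and 1.05% of all genes were lower. Cad held 96.3 and 111 CPM in P-bodies against 161 and 256 CPM (−1.01 ± 0.31, adjusted p = 0.0874), Uba1 203 and 237 CPM against 338 and 463 CPM (−0.86 ± 0.3, adjusted p = 0.119) and Vcp 352 and 396 CPM against 427 and 438 CPM (−0.21 ± 0.28, adjusted p = 0.702). The P-body values lay below the cytoplasm values for each gene. The cytoplasm replicates differed widely for Cad and Uba1, and without cytoplasm replicate 1 both were called, at −1.42 (adjusted p = 0.000733) and −1.19 (adjusted p = 0.00237). Without cytoplasm replicate 2 Cad was also called, at −0.66 (adjusted p = 0.041). With a replicate block Uba1 (−0.85, adjusted p = 0.0127) and Cad (−0.97, adjusted p = 0.00145) were called, and the count over all genes went from 1095 to 4178. DESeq2 called both as well (adjusted p = 0.0248 and 0.0139).

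**Figure D4:**
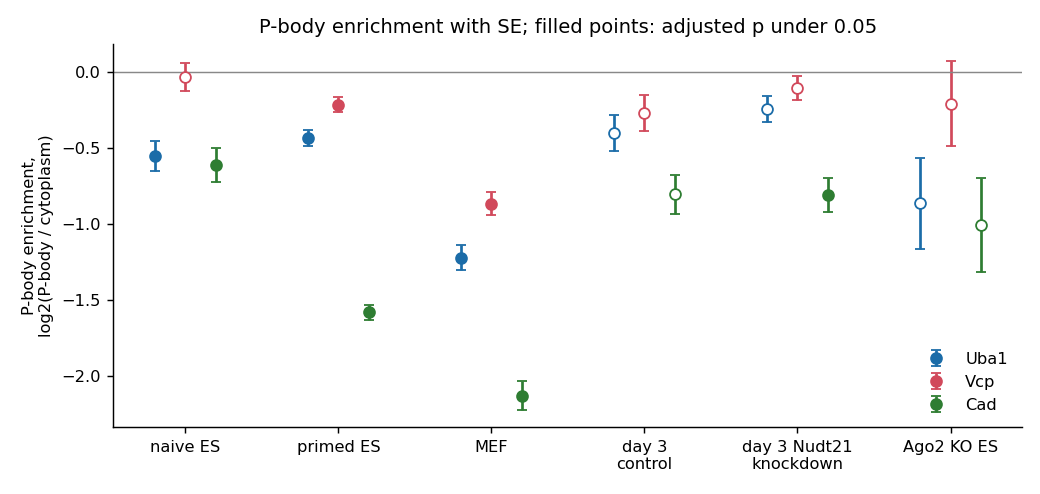
Log2 ratio of P-body to cytoplasmic RNA (vertical axis) of Uba1, Vcp and Cad in the 6 cell conditions, with SE bars, filled points where the edgeR adjusted p was under 0.05 and open points elsewhere. All 18 points lie below 0, from −0.035 for Vcp in naive cells to −2.13 for Cad in MEFs.

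The size of the P-body depletion differed between cell types by a direct test of the difference. Library scaling was redone in each joint fit, so a difference here need not equal the subtraction of the separate ratios above. Naive minus primed, Cad differed by 0.83 ± 0.12 (adjusted p = 0.0015), being less depleted in naive cells, while Uba1 (−0.26 ± 0.11, adjusted p = 0.118) and Vcp (0.04 ± 0.1, adjusted p = 0.819) did not pass, where 25.3% of all genes were called. Naive minus MEF, Uba1 differed by 0.48 ± 0.13 (adjusted p = 0.0142), Vcp by 0.64 ± 0.12 (adjusted p = 0.00208) and Cad by 1.33 ± 0.14 (adjusted p = 6.56e-05), where 41.3% of all genes were called and the median gene was at −0.17. Of all genes, 65.8%, 69.4% and 81.9% had a lower difference than Uba1, Vcp and Cad. The Uba1 call was lost without naive P-body replicate 2 (adjusted p = 0.0725). The naive minus primed difference of Uba1 was called without naive cytoplasm replicate 1 (−0.20, adjusted p = 0.0334) or 2 (−0.31, adjusted p = 0.00185). Between Nudt21 knockdown and control at day 3 no member passed (0.19, 0.19 and 0.02 for Uba1, Vcp and Cad), and 0.0118% of all genes did. Vcp was called without control P-body replicate 1 (0.34, adjusted p = 0.0359).

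The level of the 3 genes in the presorting cytoplasmic fraction followed different orders over the cell types. Uba1 was higher in naive than in primed ES cells by 0.77 ± 0.11 (adjusted p = 0.00346) and than in MEFs by 0.52 ± 0.11 (adjusted p = 0.00876), and its order from the highest was naive (933 CPM), MEF (651), Nudt21 knockdown (571), day 3 control (569) and primed (542.5), where the knockdown libraries overlapped those of both of its lower neighbours. The Uba1 calls were lost without primed cytoplasm replicate 1 or 2 (adjusted p = 0.0953 and 0.0717) and without MEF cytoplasm replicate 1 or 2 (adjusted p = 0.0908 and 0.146). Cad was at the same level in both ES states (1053 CPM each, log2 difference −0.01, adjusted p = 0.941) and 4.79-fold higher in naive cells than in MEFs (2.26 ± 0.13, adjusted p = 8.94e-05), with 294, 244 and 219.5 CPM in knockdown, day 3 control and MEF cytoplasm. Vcp ran from day 3 control and knockdown (1682 and 1642 CPM, overlapping) through MEF (1293), naive (1064) and primed (895). Its naive difference from primed (0.24, adjusted p = 0.126) and from MEF (−0.28, adjusted p = 0.0578) did not pass, though both did without naive cytoplasm replicate 1 (adjusted p = 0.0375 and 0.00713) or 2 (adjusted p = 0.00854 and 0.0185).

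From MEF to day 3 control, Vcp rose by 0.44 ± 0.05 (adjusted p = 1.01e-06), Cad rose by 0.21 ± 0.06 (adjusted p = 0.00533) and Uba1 fell by 0.14 ± 0.054 (adjusted p = 0.0351). The Uba1 and Cad calls were lost when all groups were fitted together (adjusted p = 0.139 and 0.317). The Uba1 call was also lost without MEF replicate 1 or either day 3 library (adjusted p = 0.0899 to 0.186), and the Cad call without MEF replicate 2 (adjusted p = 0.107). The shares called over all genes were 43.8% for naive against primed, 71.8% for naive against MEF and 69.3% for day 3 control against MEF. In such bulk samples fewer cells of a type and less RNA per cell cannot be told apart. Per kilobase of longest transcript, naive cytoplasm held 321 CPM per kb of Vcp, 229 of Uba1 and 148 of Cad, and MEF cytoplasm 390, 160.0 and 30.8.

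**Figure D5:**
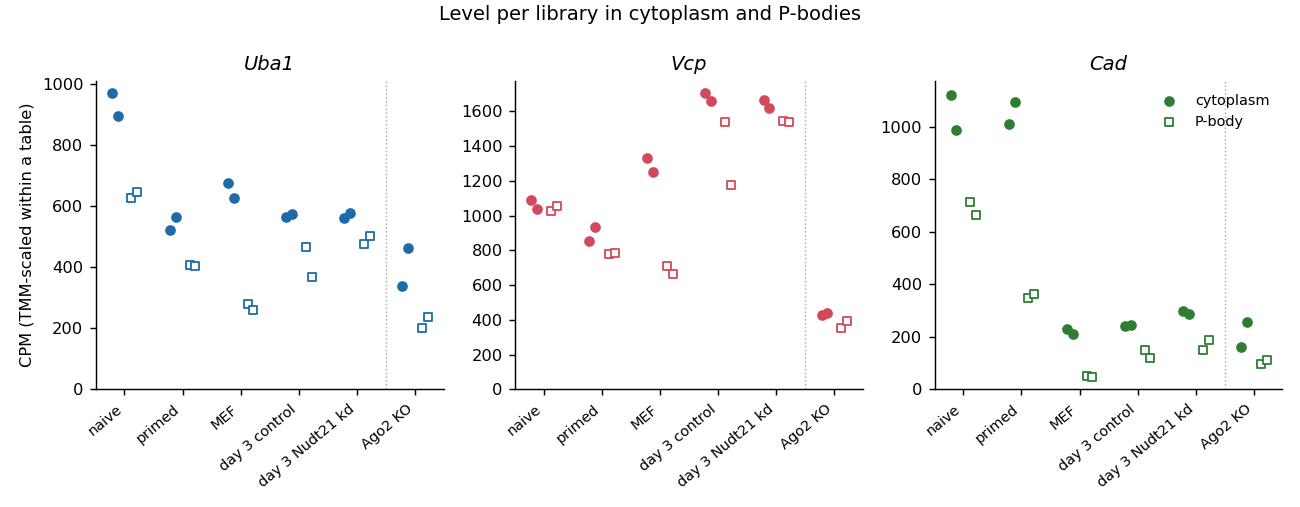
TMM-scaled CPM of Uba1, Vcp and Cad (vertical axes, each from 0) in each cytoplasm library (filled circles) and P-body library (open squares) of the 6 cell conditions, with the separately scaled Ago2 KO table right of the dotted line. Cytoplasm lies above P-bodies in each condition except for Vcp in naive cells, where 1023 and 1053 CPM overlap 1039 and 1088 CPM.

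The pathway lists were counted in P-bodies beside the shares of all genes called higher and lower, which were 22.6% and 15.4% in naive, 26.5% and 24.2% in primed and 26.6% and 28.7% in MEF cells. Uba6 rose in naive P-bodies, with 348 and 332 CPM against 30.7 and 53.0 CPM in cytoplasm (3.02 ± 0.27, adjusted p = 0.00101), and in primed P-bodies (0.92, adjusted p = 5.75e-08), but was lower in MEF P-bodies (−1.06, adjusted p = 3.3e-05). Of the 9 other E1 enzymes 4 were higher and 1 lower in naive, 6 and 1 in primed and 2 and 3 in MEF P-bodies. Mocs3 was the lowest called in naive cells (−0.63, adjusted p = 0.0395). Of 29 VCP cofactors 11 were higher and 3 lower in naive, 10 and 8 in primed and 11 and 8 in MEF P-bodies. In naive cells the deubiquitinase Yod1 was highest (4.18, adjusted p = 0.00118) and the ER ubiquitin ligase Syvn1 lowest (−0.78, adjusted p = 0.0161). Nploc4 was lower in naive (−0.39, adjusted p = 0.0262), primed (−0.48) and MEF P-bodies (−1.24), whereas Ufd1 was at −0.22 (adjusted p = 0.263) in naive cells and higher in MEFs (0.30, adjusted p = 0.0244), a call lost without either MEF cytoplasm library.

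Of 16 other pyrimidine genes, 2 were higher and 1 lower in naive, 2 and 5 in primed and 8 and 1 in MEF P-bodies, and in naive cells the UMP/CMP kinase Cmpk1 was highest (0.70, adjusted p = 0.0124) and the nucleoside diphosphate kinase Nme2 lowest (−0.49, adjusted p = 0.0195), less low than Cad itself. Umps did not pass in naive (0.18, adjusted p = 0.221), primed (−0.11, adjusted p = 0.166) or MEF cells (0.05, adjusted p = 0.723). Dhodh did not pass in naive cells (−0.50, adjusted p = 0.136), was lower in primed (−0.57, adjusted p = 0.000341) and higher in MEF P-bodies (0.40, adjusted p = 0.0123), the last call being lost without either MEF cytoplasm library. Of 13 purine genes, 4 were higher and 3 lower in naive, 4 and 7 in primed and 1 and 2 in MEF P-bodies, with Prps2 highest (1.80, adjusted p = 0.0274) and Impdh1 lowest (−0.93, adjusted p = 0.00296) in naive cells among genes of at least 10 CPM. Without naive P-body replicate 1 or 2, Uba6 and Yod1 kept their naive calls, while Mocs3, Nploc4, Syvn1, Cmpk1, Nme2, Prps2 and Impdh1 lost theirs, and each list then had 0 genes called lower in naive P-bodies. At day 3 in control cells 1 VCP cofactor, Ube4b, was lower (−0.90, adjusted p = 0.0495) and no other list gene was called. In that comparison 0.45% of all genes were lower and 0.196% higher. With the Nudt21 knockdown 1 E1 enzyme, 7 VCP cofactors, 6 pyrimidine genes and 3 purine genes were higher. In the same order, 0, 3, 0 and 1 were lower, where 9.04% of all genes were higher and 12.8% lower. In Ago2 KO cells 2 E1 enzymes and 4 VCP cofactors were higher and no list gene was lower. There 5.47% of all genes were higher and 1.05% lower.

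The 3 genes were set beside the 97 others with the lowest control occupancy at 10 CPM or more. Of those 97, 30.9% were lower and 17.5% higher in naive P-bodies, 68% and 16.5% in primed P-bodies and 90.5% and 3.16% of the 95 tested in MEF P-bodies. Their median log2 P-body ratios were −0.22, −0.43 and −1.25, where all genes had −0.06, 0.00 and 0.03. Of all genes, 15.4%, 24.2% and 28.7% were lower and 22.6%, 26.5% and 26.6% higher. All genes here include those below the 10 CPM floor set for the 97, so the gene sets compared differ in level. In day 3 control, Nudt21 knockdown and Ago2 KO cells, 1 of 96, 45 of 97 and 6 of 96 tested were lower, and 0, 0 and 3 higher. There 0.45%, 12.8% and 1.05% of all genes were lower and 0.196%, 9.04% and 5.47% higher. The counts of these least occupied genes moved with single libraries. With the members included, 32 of 100 were lower in naive P-bodies, against 4 and 3 without P-body replicate 1 and 2 and 49 and 64 without cytoplasm replicate 1 and 2. In MEFs 82 to 90 were lower whichever library was left out. Across genes, Pearson's r between control occupancy and P-body enrichment was 0.0697 in naive (9102 genes), 0.24 in primed and 0.486 in MEF cells, a description in which the points share their libraries. Occupancy was measured in ES cells only, so these values set ES cell occupancy against the P-body ratio of each cell type. Coding length had a Spearman's rho of 0.114 with P-body enrichment in naive, −0.169 in primed and −0.576 in MEF cells, and its part in these values was not tested.

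By log2 CPM over the 20 P-body and cytoplasm libraries, among 5105 genes of at least 50 CPM, the genes most like Uba1 were Rnf10 (r = 0.964), Tsc2 (0.935) and Prkcsh (0.93). Those most like Vcp were Ei24 (0.951), Dcaf7 (0.945) and Slc35a4 (0.945), and those most like Cad were Nup188 (0.986), Fasn (0.98) and Rbm10 (0.976). The 20 libraries include replicates and 5 cell conditions, which all points share. Among themselves the 3 genes were less alike, at 0.774 for Uba1 and Cad, 0.431 for Uba1 and Vcp and −0.01 for Vcp and Cad.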

How the data were processed

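RNA was measured in 36 libraries of 16 groups, 12 groups of 2 and 4 of 3. The authors aligned P-body and cytoplasm reads with HISAT2 to mm10 and counted refGene genes with featureCounts, and quantified polysome and total RNA with salmon. The Ago2 KO table is named as salmon gene counts and carries Ensembl identifiers, and its settings and annotation version are not given in the sources used here. The authors deposited the results as estimated counts per gene, where 5.05 to 25.7% of a library's values were not whole, and these were rounded to whole numbers here. The other 10 tables hold the authors' own comparisons and were not used.

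Genes with at least 10 reads over a fit's libraries were tested with edgeR 4.0.16 (R 4.3.3, TMM, quasi-likelihood, two-sided, Benjamini-Hochberg, called under 0.05). CPM are TMM-scaled within a table, and levels were compared only within a table. Libraries held 6769731 to 31185874 reads, and each member had 1192 to 3534 reads in a polysome library. The alternatives were DESeq2 1.42.0, its size factors, other filters, a replicate block, a single fit of all groups, protein-coding genes only and leaving out each library. The test was checked on counts simulated from the fitted dispersions. Group means were set equal except for 200 changed genes of at least 10 CPM. Of changes of 1 log2 unit the test found 77.5% in naive P-body enrichment, 61.1% in naive minus MEF and 100% in control occupancy. Changes of 2 log2 units were all found, and 3.07 to 4.76% of calls were false. In the real libraries these comparisons called 38%, 41.3% and 42.9% of all genes, so the simulated rates need not hold there. Figures were drawn with matplotlib 3.10.9.

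The polysome and total RNA libraries chose the members, so all their contrasts, degron against control included, are given for the members without a test, although a test of that last contrast had been planned. Members and gene lists were chosen with earlier results of these data known. Named list genes were the highest and lowest called with a mean of at least 10 CPM in naive P-bodies and control occupancy, plus Uba6, Ufd1, Nploc4, Dhodh and Umps. Neighbours were the 5 genes after the last member, and any between members, at 100 CPM or more, of which 1 is not reported here. Likeness named the 3 genes with the highest r. The labels do not say whether P-body replicates were separate cultures. The paper describes its naive and primed mouse samples as biologically independent and its sequencing assays as having biological replicates. The p-values measure the spread between these libraries, part of which may be technical. By chi-square per degree of freedom of their counts, naive and primed P-body replicates differed little, at 1.78 and 2.1. The other P-body groups were at 17.4 to 49.4 and naive cytoplasm at 28. The spread behind the naive and primed p-values was thus small among the P-body libraries. Coordinates and lengths are from GENCODE M21 (mm10), where 98.8% of genes matched.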

Additional observations from a re-analysis of the deposited data

Results flagged for a closer look

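The P-body ratio of Cad differed between naive and primed cells by 0.829 on the log2 scale (edgeR adjusted p = 0.0015), with naive values of 713 and 663 CPM in P-bodies and 1120 and 986 CPM in cytoplasm against 349 and 364 CPM and 1011 and 1094 CPM in primed cells. Its cytoplasmic level was 1053 CPM in both. The difference was called by the interaction test and kept its call without each of the 8 libraries in turn, at 0.746 to 0.995.

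Between naive cells and MEFs the ratio differed by 0.482 for Uba1 (adjusted p = 0.0142), 0.643 for Vcp (adjusted p = 0.00208) and 1.33 for Cad (adjusted p = 6.56e-05), all less depleted in naive cells, while the median gene differed by −0.17. Of all genes, 65.8%, 69.4% and 81.9% had a lower difference than Uba1, Vcp and Cad. The median P-body ratio of their deciles of coding length was 0.167, 0.216 and 0.086 in naive cells. In MEFs these medians were −0.687, −0.469 and −0.86, so the difference is not particular to the members. Vcp and Cad kept the call without each library in turn, and Uba1 lost it without naive P-body replicate 2 (0.452, adjusted p = 0.0725). No group of 4 or more samples exists here in which a single outlying library could be tested.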

How the results depend on the processing

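Low ribosome occupancy of the 3 members held under each of 14 settings, with Uba1 ranked 2 to 3, Cad 3 to 5 and Vcp 7 to 9 in control cells and 1, 3 to 4 and 2 in degron cells. The members were chosen for this ratio in these libraries, so the ranks are a description and not separate support. No result reversed. The cause of the changes below was not tested. Where leaving out a library left an arm with 1, that library is assumed to vary like the other groups.

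With DESeq2, calls went from 102 to 2105 (day 3 control P-bodies), 1095 to 1731 (Ago2 KO), 2 to 26 (Nudt21 knockdown minus control), 509 to 832 (DDX6 degron, total RNA) and 0 to 4 (change in occupancy), and Uba1 (−0.394, adjusted p = 0.0446) and Cad (−0.796) passed in day 3 control, and Uba1 (−0.903, adjusted p = 0.0248) and Cad (−1.048, adjusted p = 0.0139) in Ago2 KO cells. DESeq2 size factors gave 716 Ago2 KO calls. With filterByExpr day 3 control gave 202 calls and Cad passed (−0.799). With no filter beyond 1 read, calls were 1940 (day 3 control, Cad passing at −0.802), 2643 (Ago2 KO, Cad passing at −1.011), 62 (knockdown minus control), 863 and 1029 (degron, total and polysome RNA) and 16 (change), and Uba1 passed with the Nudt21 knockdown (−0.239, adjusted p = 0.0394) and Vcp in naive against MEF cytoplasm (−0.293, adjusted p = 0.0367). With all groups in a single fit, calls were 5128 of 8209 (primed), 3308 (day 3 control), 2100 of 3501 (Nudt21 knockdown), 1138 (degron total RNA) and 362 of 666 (degron polysome RNA). Vcp then lost its primed call (−0.195, adjusted p = 0.198), Uba1 (−0.445), Vcp (−0.309) and Cad (−0.846) passed in day 3 control, Vcp passed in naive against MEF cytoplasm (−0.281, adjusted p = 0.0231), and Uba1 (−0.195) and Cad (0.155) lost their day 3 against MEF calls.

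Same-numbered libraries did not deviate together throughout (r = 0.0277, 0.328 and 0.0279 in control and −0.00129, 0.103 and 0.164 in degron polysome and total RNA, −0.0624 to 0.542 in P-body and cytoplasm groups), and not every sample correlated best with its own number, so the numbers were not taken as pairs. The study took the fractions of a preparation together, but the labels do not say that the numbers mark preparations. A replicate block gave 802 calls in day 3 control, with Cad passing (−0.81), 4178 in Ago2 KO cells, with Uba1 (−0.851) and Cad (−0.972) passing, 1 for knockdown minus control, 82 for degron total RNA and 6 for the change, and Uba1 passed with the Nudt21 knockdown (−0.242, adjusted p = 0.0414). Among named list genes it lost the naive calls of Mocs3 and Nploc4.

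Leaving out each library in turn gave call counts of 2056 to 10018 (naive P-bodies), 5595 to 9976 (MEF), 82 to 8752 (day 3 control), 1017 to 5729 (Nudt21 knockdown), 446 to 5617 (Ago2 KO), 2293 to 7089 (naive minus primed), 0 to 2185 (knockdown minus control), 2242 to 9799 (naive against primed cytoplasm), 6 to 3373 and 179 to 951 (degron, total and polysome RNA) and 0 to 52 (change). Log2 ranges of members whose call moved were, for P-bodies, −0.595 to −0.492 (naive Uba1), −0.689 to −0.521 (naive Cad), −0.522 to −0.295, −0.413 to −0.139 and −0.924 to −0.697 (day 3 control Uba1, Vcp and Cad), −0.29 to −0.195 (knockdown Uba1), −1.187 to −0.654 and −1.418 to −0.664 (Ago2 KO Uba1 and Cad). For differences they were −0.309 to −0.094 (naive minus primed Uba1), 0.438 to 0.773 (naive minus MEF Uba1) and 0.055 to 0.343 (knockdown minus control Vcp). For cytoplasm they were 0.705 to 0.809 and 0.169 to 0.282 (naive against primed, Uba1 and Vcp), 0.47 to 0.602 and −0.321 to −0.223 (naive against MEF, Uba1 and Vcp) and −0.212 to −0.091 and 0.127 to 0.27 (day 3 against MEF, Uba1 and Cad).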
